A study of Ovis aries with 2 samples.

Results

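Proteasome subunit genes were followed across sheep blood mononuclear cells. The set held every gene name in the count tables that starts with PSMA, PSMB, PSMC, PSMD, PSME, PSMF or PSMG, which came to 50 of 26814 names. The rule used gene names and no measured value, but it was set when earlier results of these data were known. The proteasome is the protease that degrades proteins tagged with ubiquitin. Its 20S core particle is a barrel of alpha subunits (PSMA) and beta subunits (PSMB), and the 19S regulatory particle on its end binds, unfolds and feeds in the substrate with ATPases (PSMC) and other subunits (PSMD). In cells exposed to interferon, and constitutively in many leukocytes, the catalytic subunits PSMB6, PSMB7 and PSMB5 are exchanged for PSMB9, PSMB10 and PSMB8. The resulting immunoproteasome, often capped by the PA28 activator made of PSME1 and PSME2, yields peptides that are loaded onto MHC class I.

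The untreated library came from sheep that received nothing before blood was drawn. The A.G.-ES library came from sheep with an A.G.-ES suture embedded at ST36, an acupuncture point, on both sides of the body. The series title describes weaned lambs and a suture that elutes astragaloside IV and glycyrrhizic acid, saponins of Astragalus and liquorice root. The labels give neither the breed, the exact age, the time between embedding and bleeding, nor the number of animals in a library, and no group received a suture without drug. Cells were used without culture, and the 3′ ends of transcripts were counted as unique molecular identifiers (UMIs) in droplets.

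There was 1 library in each group, so nothing here could be tested between treatments or checked against replicates. A level is given as CPM, the UMIs of a gene per 1000000 UMIs of the library or class, and a ratio is the A.G.-ES CPM over the untreated CPM. All intervals in parentheses are 95% intervals that cover counting error only. A gene was counted as higher or lower past a fold of 1.5, if it had at least 200 UMIs over both libraries (100 within a class). Because 3′ UMI counts also depend on where a transcript is primed and annotated, levels were compared between cells for a gene and not between genes.

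After filtering there were 7565 untreated and 8737 A.G.-ES cells, holding 50488226 and 39259466 UMIs at medians of 5123 and 4101 UMIs. Mitochondrially encoded genes took 1.37% and 2.20% of UMIs. The 85 Y-linked genes gave 40414 untreated and 755 A.G.-ES UMIs, a difference that no label accounts for. The libraries shared 61 cell barcodes. Effects of treatment, animal and library cannot be told apart in any value that follows.

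Classes of cells were gated on marker genes. The B gate (MS4A1, CD79A, CD79B and PAX5 among its markers) held 2464 untreated and 1687 A.G.-ES cells, the CD4 T gate 360 and 1419, the CD8B T gate 177 and 554, the gate on T cells with SOX13 and RHEX 1115 and 602, the NK gate on NCR1 43 and 62, and the monocyte gate 171 and 254. A gate on DERL3 with JCHAIN and MZB1, meant for plasmablasts, held 918 and 139 cells, but MS4A1, which plasmablasts largely lose, stood at 676 and 498 CPM there, and TNFRSF17, the plasma cell receptor BCMA, at 2.23 and 0 CPM. It is therefore called the DERL3/JCHAIN B-lineage class. In monocytes VCAN stood at 5394 and 4548 CPM and CSF1R at 193 and 192 CPM, and the red cell and platelet lists each summed to at most 1.77 CPM. CD8B T cells also carried GNLY, a cytotoxic granule gene, at 6585 and 5363 CPM. In no gate were 30.6% of untreated and 46.0% of A.G.-ES cells.

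Across the whole libraries, proteasome genes took a smaller share of UMIs in the A.G.-ES library. All members together made up 0.435% of untreated and 0.366% of A.G.-ES UMIs, or 29.0 and 16.5 UMIs per cell. Of the 50 members, 48 passed the minimum, and 40 of these (83.3%) had a ratio below 1, against 56.3% of all genes tested. In total 0 of 48 were at least 1.5-fold higher in the A.G.-ES library, against 13.3% of all genes tested, and 4 of 48 were at least 1.5-fold lower, against 16.4% of all genes. The median log2 ratio of the members was -0.32, that of all 10641 genes tested -0.08. The difference was thus small per gene and mostly of the same sign, and members past the fold were not more frequent than among all genes. Of the 4 lower members, PSMD10 alone was past the fold under all 6 alternatives run, and PSMA4, PSMD4 and PSME4 came to 0.805, 0.906 and 0.749 under their weakest. PSMD10 lies on the X chromosome in the RefSeq annotation, and the libraries differed in Y-linked UMIs. The part of this in its ratio was not tested. In bulk sums such as these, fewer cells of a kind and less RNA of a gene per cell cannot be told apart.

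**Figure D1:**
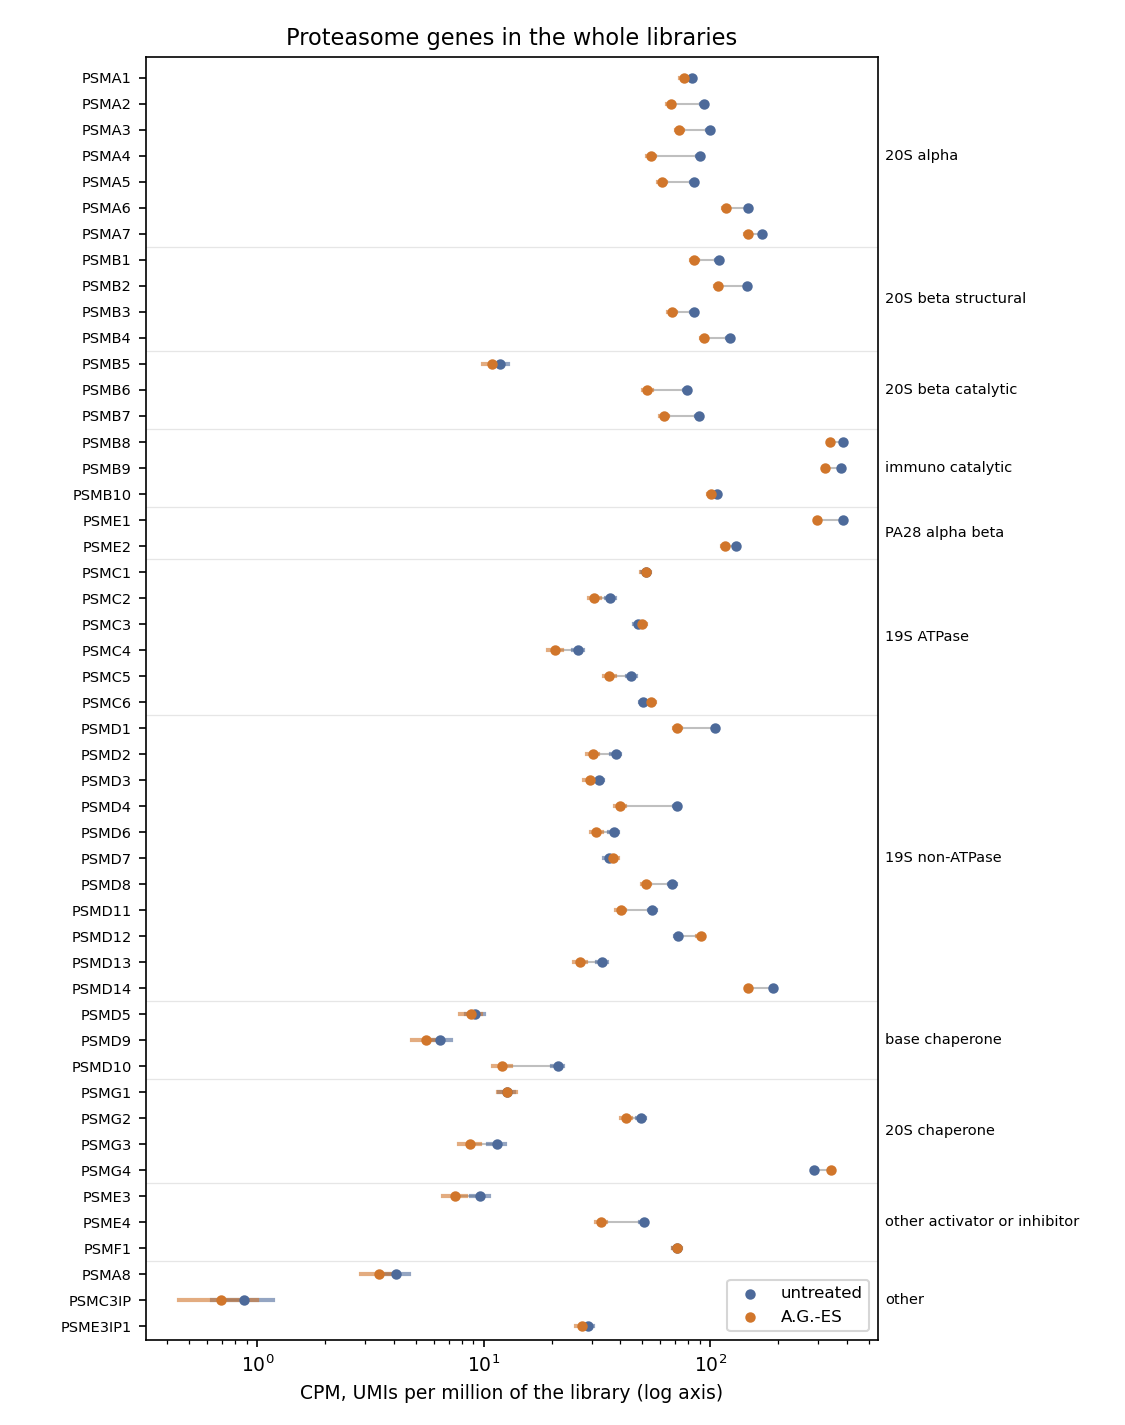
CPM of 49 proteasome genes in the 2 whole libraries, grouped by role, on a log axis. Points are the CPM of each library and coloured bars their 95% Poisson intervals. PSMB11 is not drawn because it had 0 UMIs. Most A.G.-ES points lie to the left of the untreated points, and those of PSMD12 and PSMG4 lie to the right.

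The 14 core subunits PSMA1 to PSMA7 and PSMB1 to PSMB7 all had ratios below 1, where 56.3% of all genes did. Their summed level was 1408 untreated CPM (1398 to 1419) and 1077 A.G.-ES CPM (1066 to 1087), a ratio of 0.764 (0.755 to 0.774). Among the alpha subunits, which form the gated outer rings, PSMA7 had the most UMIs and was at 169 and 147 CPM (ratio 0.869, 0.840 to 0.898). PSMA1 was nearest to 1, at 83.2 and 76.3 CPM (0.917, 0.874 to 0.961). PSMA4 was farthest, at 90.4 and 54.7 CPM (0.605, 0.575 to 0.637), and was the single core subunit past the fold.

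The structural beta subunits PSMB1 to PSMB4 differed little from each other, with ratios from 0.743 for PSMB2 (145 and 108 CPM) to 0.798 for PSMB3 (84.8 and 67.7 CPM). Of the constitutive catalytic subunits, PSMB6, which carries the caspase-like activity, was at 78.9 and 52.8 CPM (0.669, 0.634 to 0.705). PSMB7, with the trypsin-like activity, was at 89.3 and 62.4 CPM (0.699, 0.665 to 0.734). PSMB5, which has the chymotrypsin-like activity, gave only 593 and 427 UMIs, or 11.7 and 10.9 CPM, and its interval spans 1 (0.926, 0.816 to 1.05).

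The 5 immunoproteasome genes were also lower in the A.G.-ES library, but less so than the core. Their sum was 1385 untreated CPM (1375 to 1395) and 1172 A.G.-ES CPM (1161 to 1183), a ratio of 0.846 (0.836 to 0.856). PSMB8 stood at 385 and 338 CPM (0.877, 0.858 to 0.897), PSMB9 at 378 and 322 CPM (0.853, 0.834 to 0.873) and PSMB10 at 107 and 101 CPM (0.944, 0.906 to 0.984). For the PA28 subunits, PSME1 stood at 385 and 295 CPM (0.765, 0.748 to 0.783) and PSME2 at 130 and 116 CPM (0.895, 0.862 to 0.929). PSME1 was therefore as far below 1 as the core sum, and the 3 catalytic immunosubunits were nearer to 1. None of the 5 passed the fold.

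The 17 subunits of the 19S particle gave 996 and 840 CPM (0.843, 0.832 to 0.855). Of these, 12 (70.6%) had ratios below 1, against 56.3% of all genes. The 6 ATPases of its base, which unfold the substrate, were the group nearest to 1, with 257 and 244 CPM in sum (0.946, 0.921 to 0.972). Within them PSMC6 was at 50.6 and 54.5 CPM (1.08, 1.02 to 1.14) and had the most UMIs, PSMC1 was at 51.8 and 51.9 CPM (1.00, 0.945 to 1.06), and PSMC4 was at 26.1 and 20.6 CPM (0.789, 0.722 to 0.862). The 11 other 19S subunits spread more widely. PSMD14, the deubiquitinase of the lid and the member of that group with the most UMIs, was at 190 and 147 CPM (0.776, 0.751 to 0.802). PSMD4, a ubiquitin receptor, was at 71.2 and 40.1 CPM, the lowest ratio of all members (0.563, 0.530 to 0.597). PSMD12, a lid subunit, went the other way with 72.1 and 90.7 CPM, the highest ratio of all members (1.26, 1.2 to 1.32).

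Assembly factors did not share a direction. The base chaperones PSMD5, PSMD9 and PSMD10 had ratios below 1, from 0.951 for PSMD5 (0.824 to 1.10) to 0.567 for PSMD10 (0.507 to 0.632), whose level was 21.2 and 12 CPM. Of the chaperones that build the 20S ring, PSMG4 was higher in the A.G.-ES library, at 287 and 341 CPM (1.19, 1.16 to 1.22), PSMG1 was at 12.6 and 12.7 CPM, PSMG2 at 49.6 and 42.6 CPM, and PSMG3 lower at 11.4 and 8.69 CPM (0.763, 0.665 to 0.874). PSMG4 held most UMIs of that group, so the group sum followed it (360 and 405 CPM). Among the other regulators, PSME4, the activator PA200, was lower at 50.7 and 32.9 CPM (0.649, 0.607 to 0.694), and PSME3, the nuclear activator PA28 gamma, was at 9.65 and 7.46 CPM (0.774, 0.667 to 0.896). PSMF1, the inhibitor PI31, was level at 71.0 and 71.4 CPM (1.00, 0.956 to 1.06).

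The members left had few UMIs or are no subunits of the common particle. PSMA8, the testis alpha subunit, gave 207 and 135 UMIs, and reads of its paralog PSMA7 could reach it. PSMB11, the catalytic subunit of the thymus cortex, had 0 UMIs in both libraries. PSMC3IP, a factor of meiotic recombination named for its binding to PSMC3, had 44 and 27 UMIs, under the minimum. PSME3IP1, named for binding PSME3, stood at 28.8 and 27.2 CPM (0.943, 0.870 to 1.02).

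Class by class, the A.G.-ES core sum was lower in B-lineage, CD8B T and NK cells, lower in CD4 T cells except under TMM scaling, and level in the other classes. In B cells its sum was 1318 and 1009 CPM (ratio 0.765, 0.747 to 0.783), and in the DERL3/JCHAIN B-lineage class 1665 and 1322 CPM (0.794, 0.755 to 0.835). CD8B T cells gave 1640 and 1197 CPM (0.730, 0.686 to 0.777), with 18.6% of untreated and 3.25% of A.G.-ES cells cycling. With cells that carried at least 2 UMIs of MKI67, TOP2A, RRM2, TYMS and CENPF left out, the CD8B T ratio was 0.851. In CD4 T cells the sum was 1313 and 1142 CPM (0.870, 0.832 to 0.910), but scaling by TMM, which matches the bulk of genes rather than total UMIs, gave 1.00 there and 0.923 in CD8B T cells. TMM moved the median log2 ratio of all genes by 0.21 in CD4 T, 0.34 in CD8B T and 0.10 in SOX13/RHEX T cells. Without TMM the median ratio of all genes tested in CD4 T cells was 0.884, inside the interval of the core ratio there. In SOX13/RHEX T cells the core was at 1123 and 1117 CPM (0.995, 0.950 to 1.04), and in monocytes at 856 and 846 CPM (0.989, 0.903 to 1.08). The few NK cells gave 1157 and 766 CPM (0.662, 0.516 to 0.846), from 159 and 116 UMIs.

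Immunoproteasome genes parted from this pattern in monocytes and SOX13/RHEX T cells, where A.G.-ES cells had the higher sum. In monocytes it was 917 untreated CPM (852 to 984) and 1333 A.G.-ES CPM (1278 to 1389), a ratio of 1.45 (1.34 to 1.58). In SOX13/RHEX T cells it was 1103 and 1244 CPM (1.13, 1.08 to 1.18). The sum was lower in B cells (1250 and 1091 CPM, ratio 0.873), in the DERL3/JCHAIN B-lineage class (1666 and 1457 CPM, 0.875), in CD8B T cells (1765 and 1353 CPM, 0.766), in NK cells (1048 and 779 CPM, 0.743) and in CD4 T cells (1336 and 1200 CPM, 0.898, but 1.04 under TMM). Under TMM the CD8B T ratio was 0.969. Ratios of the 19S sum ran from 0.699 in CD8B T cells (0.649 to 0.752) to 0.954 in SOX13/RHEX T cells (0.904 to 1.01).

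**Figure D2:**
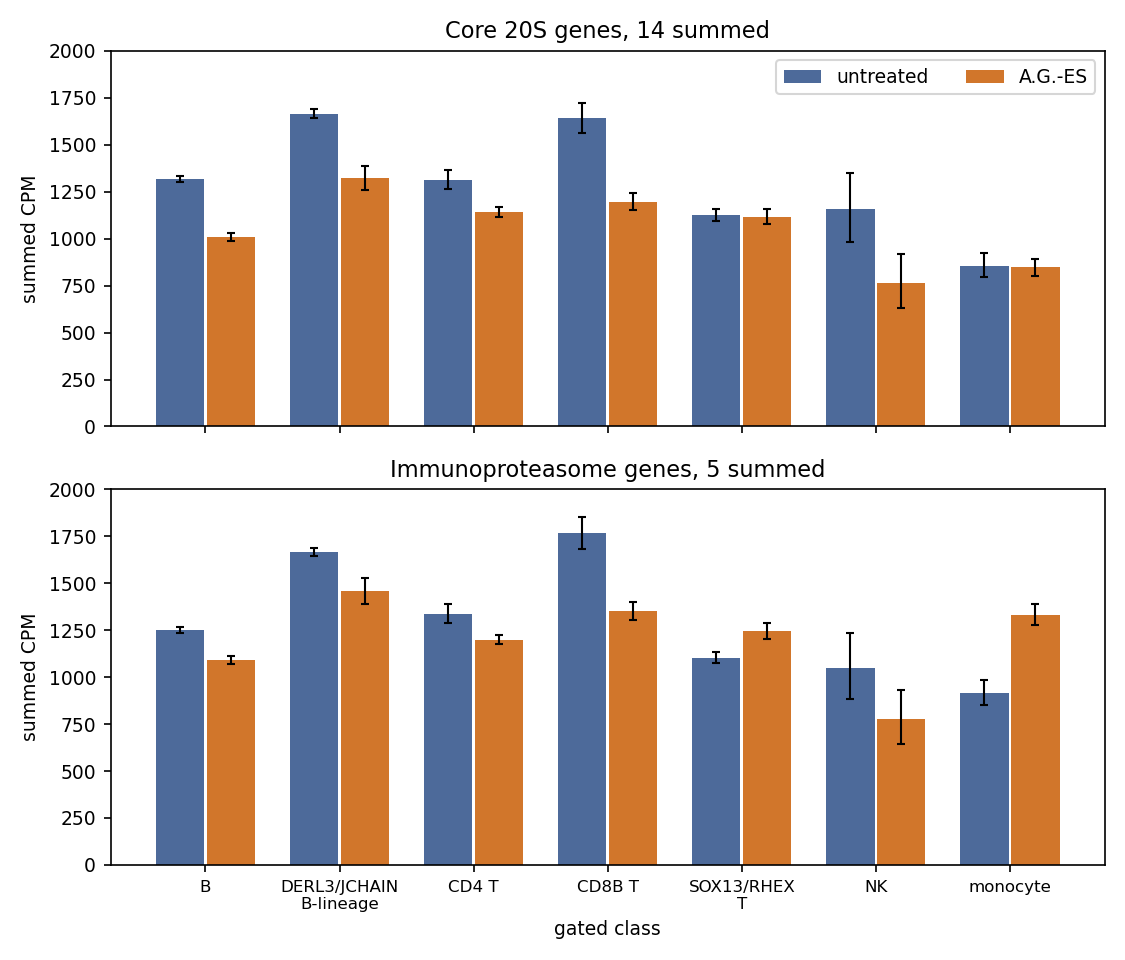
Summed CPM of the 14 core and the 5 immunoproteasome genes in each gated class and library, with 95% Poisson intervals. In monocytes the core bars are about level (856 and 846 CPM) while the immunoproteasome bar is higher in the A.G.-ES library (917 and 1333 CPM).

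Each of the 5 immunoproteasome genes was higher in A.G.-ES monocytes. PSMB8 was at 240 and 329 CPM (1.37, 1.16 to 1.62), PSMB9 at 209 and 286 CPM (1.37, 1.15 to 1.64) and PSMB10 at 92.1 and 161 CPM (1.74, 1.35 to 2.28). PSME1 was at 244 and 377 CPM (1.55, 1.32 to 1.82) and PSME2 at 132 and 179 CPM (1.36, 1.09 to 1.71). All of these intervals lie above 1. The constitutive counterparts PSMB6 (60.6 and 51.4 CPM, 0.847) and PSMB7 (55.8 and 53.7 CPM, 0.963) had intervals that span 1, and PSMB5 had only 5 and 19 UMIs. Of 29 members past the minimum in monocytes, 3 were at least 1.5-fold higher, PSMG4 (48.5 and 86.2 CPM), PSMB10 and PSME1, where 8.2% of all genes were. A single member was lower past the fold, PSMD7, a lid subunit (53.3 and 34.2 CPM, 0.642, 0.426 to 0.972), against 12.4% of all genes. PSMB10 and PSMG4 were past the fold under all 7 alternatives run, whereas PSME1 came to 1.34 in cells of 3000 to 6000 UMIs and PSMD7 to 0.685 under TMM. The next lowest, the ATPase PSMC1, was at 54.6 and 36.6 CPM (0.671, 0.450 to 1.01).

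Depth differed between the monocytes of the libraries, with medians of 4129 untreated and 6451 A.G.-ES UMIs, and the monocyte ratio varied with it. Among monocytes of 1000 to 3000 UMIs (44 and 31 cells) the immunoproteasome sum was 317 and 866 CPM (2.73, 1.74 to 4.37). Between 3000 and 6000 UMIs (63 and 76 cells) it was 566 and 799 CPM (1.41, 1.16 to 1.73), and between 6000 and 12000 UMIs (49 and 133 cells) 1257 and 1449 CPM (1.15, 1.04 to 1.28). The direction was the same in these 3 ranges, and the size was smaller in deeper cells. Core sums in the same ranges had ratios of 1.36 (0.879 to 2.10), 1.00 (0.815 to 1.24) and 0.810 (0.723 to 0.909), so the immunoproteasome ratio exceeded the core ratio in each. The part of depth in the monocyte result was not tested beyond these ranges. NK markers summed to 3.64 and 31.9 CPM in monocytes, T markers to 23.0 and 31.3 CPM and B markers to 37.6 and 20.7 CPM, and mitochondrially encoded genes took 2.55% and 3.46% of UMIs, and their part was not tested.

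In SOX13/RHEX T cells 4 of the 5 immunoproteasome genes were above 1. PSME2 was at 100 and 131 CPM (1.31, 1.13 to 1.51), PSMB10 at 99.1 and 124 CPM (1.25, 1.08 to 1.44), PSMB8 at 287 and 357 CPM (1.24, 1.14 to 1.35) and PSME1 at 297 and 313 CPM (1.05, 0.965 to 1.15). PSMB9 was level at 320 CPM in both libraries (0.999, 0.917 to 1.09). PSMB6 (62.7 and 55.3 CPM), PSMB7 (72.2 and 69.1 CPM) and PSMB5 (9.77 and 8.22 CPM) had intervals that span 1. Of 40 members tested in this class 0 were higher past the fold (4.76% of all genes were), and 1 was lower (15% of all genes), PSME4 at 34.5 and 16.1 CPM (0.465, 0.324 to 0.657). Over 8 alternatives its ratio lay between 0.390 and 0.520. The next lowest was PSMD14 at 137 and 98.7 CPM (0.719). Among SOX13/RHEX T cells of 6000 to 12000 UMIs (44 and 81 cells) the immunoproteasome ratio was 1.04 (0.914 to 1.17), and between 1000 and 3000 UMIs (187 and 76 cells) it was 1.21 (1.02 to 1.43). B-cell markers summed to 137 and 84.1 CPM in this class, of which CD79A alone gave 127 and 77.7 CPM. NK markers summed to 7.27 and 59.8 CPM and platelet markers to 8.86 and 21.7 CPM, and mitochondrially encoded genes took 1.13% and 2.06% of UMIs. The part of these markers and of mitochondrial UMIs in the values was not tested.

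B cells showed the lower core in most subunits. PSMB7 was at 86.6 and 53.3 CPM (0.616, 0.557 to 0.681), PSMB6 at 75.9 and 54.7 CPM (0.721, 0.651 to 0.797) and PSMB5 at 10.4 and 10.7 CPM. The immunosubunits PSMB8 (346 and 303 CPM) and PSMB9 (336 and 294 CPM) both had a ratio of 0.874, PSMB10 was at 84.1 and 80.3 CPM (0.954, 0.874 to 1.04), PSME1 at 374 and 315 CPM (0.843) and PSME2 at 110 and 99.2 CPM (0.905). All 5 immunoproteasome genes were thus below 1 here, and PSMB10 had an interval that spans it. Of 48 members tested 1 was higher past the fold, against 9.68% of all genes, and 4 were lower, against 14.8%. The higher member was PSMD12 at 56.6 and 87.1 CPM (1.54, 1.41 to 1.69), followed by PSMG1 at 12.1 and 14.7 CPM (1.21, 0.975 to 1.5). The lower members were PSMD10 (20.9 and 10.0 CPM, 0.480), PSME4 (50.1 and 26.6 CPM, 0.531), PSMA4 and PSMB7. PSMD12, PSMD10 and PSME4 were past the fold under all 7 alternatives run in B cells, while PSMA4 and PSMB7 were inside it in cells of 3000 to 6000 UMIs (0.802 and 0.680).

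The DERL3/JCHAIN B-lineage class repeated parts of this, with 139 A.G.-ES cells behind it. PSMD12 was again the highest, at 63.9 and 106 CPM (1.66, 1.37 to 2.00), followed by PSMG1 at 14.4 and 21.0 CPM (1.46, 0.926 to 2.20). PSME4 was the lowest at 62.6 and 34.0 CPM (0.543, 0.388 to 0.741), and PSME3 had only 10 A.G.-ES UMIs (0.603, 0.284 to 1.14). Of 47 members tested 1 was higher (9.14% of all genes) and 9 lower (22.4%). Of these 10, PSME4 alone was past the fold under all 7 alternatives, and PSMD12 came to 1.35 with raised gates. PSMB8 was at 483 and 388 CPM (0.804), PSMB10 at 117 and 88.2 CPM (0.751), PSMB9 at 446 and 406 CPM (0.910), PSME1 at 463 and 426 CPM (0.920) and PSME2 at 156 and 149 CPM (0.953). PSMB6 was at 96.7 and 68.0 CPM (0.703), PSMB7 at 98.2 and 63.9 CPM (0.651) and PSMB5 at 13.6 and 13.8 CPM. Of this class 22.9% of untreated and 5.76% of A.G.-ES cells were cycling, and the median depths were 12429 and 7366 UMIs. In its cells of 3000 to 6000 UMIs the core ratio was 0.903 (0.728 to 1.12), from 28 and 35 cells.

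CD4 T cells had 0 of 43 members higher past the fold, against 5.47% of all genes, and 2 lower, against 14.4%. These were PSMB7 at 110 and 69.2 CPM (0.628, 0.534 to 0.740) and PSMD14 at 255 and 162 CPM (0.636, 0.572 to 0.707), and both were inside the fold under TMM (0.725 and 0.734). The highest were the lid subunit PSMD7 at 28.2 and 41.9 CPM (1.49, 1.11 to 2.02) and PSMD3 at 24.7 and 33.2 CPM (1.35, 0.986 to 1.87). PSMB8 (355 and 344 CPM) and PSMB9 (372 and 345 CPM) had intervals that span 1, while PSMB10 (144 and 116 CPM, 0.808), PSME1 (325 and 276 CPM, 0.849) and PSME2 (140 and 118 CPM, 0.841) were lower beyond counting error. PSMB6 was at 59.4 and 46.8 CPM (0.788) and PSMB5 at 11.6 and 12.1 CPM. Each of these CD4 T values would stand higher by the TMM shift given above.

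CD8B T cells had the most members past the fold, 15 of 38 lower, against 25.2% of all genes, and 1 higher, against 5.86%. Lowest were PSMD1, the scaffold of the 19S base, at 134 and 61.4 CPM (0.458, 0.359 to 0.584) and PSMA4 at 99.1 and 47.1 CPM (0.475, 0.359 to 0.631). The highest were PSMG4 at 185 and 333 CPM (1.80, 1.53 to 2.13) and PSMD12 at 88.8 and 95.5 CPM (1.08, 0.836 to 1.40). Of the 16 members past the fold, 4 were so under all 8 alternatives run in this class, PSMD1, PSMA4, PSMG4 and the lid subunit PSMD11 (70.2 and 36.6 CPM, 0.521). PSMB8 was at 506 and 445 CPM (0.879), PSMB9 at 507 and 379 CPM (0.747), PSMB10 at 150 and 118 CPM (0.790), PSME1 at 421 and 289 CPM (0.685) and PSME2 at 181 and 122 CPM (0.675). PSMB6 was at 95 and 53.5 CPM (0.563) and PSMB7 at 88.8 and 72.0 CPM (0.810, 0.622 to 1.06), and PSMB5 had 11 and 30 UMIs. The median log2 ratio of all genes in this class was -0.28, so the members' median of -0.46 stood against a lowered background. The gate left out 72 untreated and 134 A.G.-ES cells for their CD79A UMIs. Those 72 were 55.6% cycling, with a core sum of 2809 CPM, and with these cells included the core ratio was 0.555 and the immunoproteasome ratio 0.588.

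In NK cells no member reached 100 UMIs. PSMB8 had 39 and 35 UMIs, PSMB9 46 and 23, PSMB10 6 and 7, PSME1 37 and 38 and PSME2 16 and 15. PSMB6 had 8 and 3 UMIs, PSMB7 9 and 11 and PSMB5 1 and 2. Only for PSMB9 did the interval of the ratio lie clear of 1 among these 8 genes (0.454, 0.262 to 0.764). B-cell markers stood at 72.8 and 59.4 CPM in these cells, of which CD79A gave 58.2 and 39.6 CPM.

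**Figure D3:**
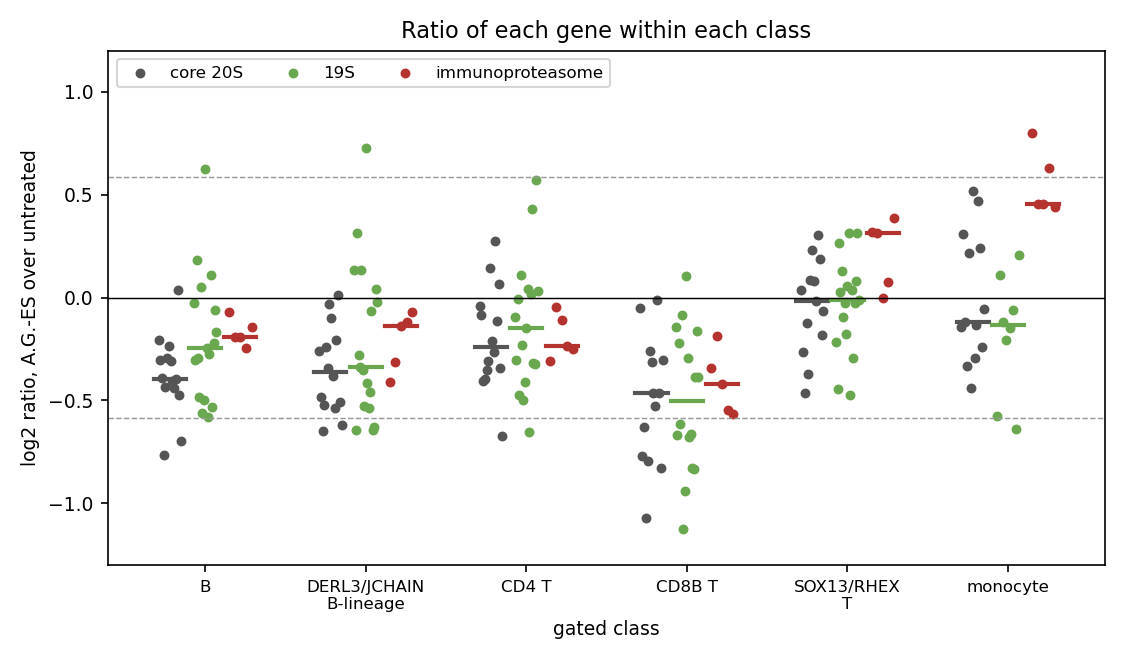
Log2 ratio, A.G.-ES over untreated, of each core, 19S and immunoproteasome gene past 100 UMIs in 6 gated classes. Points are genes, short lines the medians, and dashed lines the fold of 1.5. The immunoproteasome points lie at or above 0 in SOX13/RHEX T cells and monocytes, with medians of 0.31 and 0.46, and below 0 in the other 4 classes.

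Some members kept a direction across classes, and those named here are not a full list. PSME4 was below 1 in each of the 6 classes other than NK, from 0.465 in SOX13/RHEX T cells to 0.719 in monocytes. PSMD14 was below 1 in the same 6 classes, from 0.626 in CD8B T cells (251 and 157 CPM) to 0.903 in monocytes (250 and 225 CPM, but 1.21 among monocytes of 3000 to 6000 UMIs). PSMG4 was above 1 in all 6, from 1.14 in B cells (272 and 309 CPM) to 1.80 in CD8B T cells. PSMD12 was past the fold in both B-lineage classes, and stood at 0.903 in CD4 T cells (95.7 and 86.4 CPM) and 0.867 in monocytes (88.5 and 76.7 CPM). PSMB6 and PSMB7 were also below 1 in the same 6 classes as PSME4, in some with intervals that span 1. No difference between classes was tested.

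The share of immunoproteasome genes in the UMIs of immunoproteasome plus core genes compares the 2 gene sets without the library total. It does not separate the 2 forms of the particle, because both contain the alpha and structural beta subunits of the core set. PSME1 and PSME2 in the other set belong to the PA28 cap. This share was 49.6% (49.3 to 49.8%) among untreated and 52.1% (51.8 to 52.5%) among A.G.-ES cells. In monocytes it was 51.7% (49.1 to 54.3%) and 61.2% (59.6 to 62.7%), a gap of 9.45 percentage points. B cells had 48.7% (48.2 to 49.1%) and 52.0% (51.3 to 52.7%), and SOX13/RHEX T cells 49.5% (48.6 to 50.5%) and 52.7% (51.4 to 53.9%). In the DERL3/JCHAIN B-lineage class it was 50.02% (49.5 to 50.5%) and 52.4% (50.7 to 54.1%). The CD4 T shares of 50.4% and 51.2%, the CD8B T shares of 51.8% and 53.1% and the NK shares of 47.5% and 50.4% had overlapping intervals. Over all depths the share was thus higher in the A.G.-ES library in all 7 classes, by 0.781 to 9.45 points. Within depth ranges this did not always hold. In DERL3/JCHAIN B-lineage cells of 3000 to 6000 UMIs the immunoproteasome ratio (0.759) was below the core ratio (0.903). So it was in NK cells of 1000 to 3000 UMIs (0.511 and 0.946), and the intervals overlap in both. In every other depth range compared within a class, the immunoproteasome ratio exceeded the core ratio.

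Among catalytic subunits alone, PSMB8, PSMB9 and PSMB10 made up 82.9% (82.5 to 83.2%) of the untreated and 85.8% (85.4 to 86.2%) of the A.G.-ES UMIs of the 6 catalytic genes. In monocytes the values were 81.5% (78 to 84.7%) and 87.0% (85.2 to 88.6%), and in B cells 81.6% (81.0 to 82.2%) and 85.1% (84.3 to 85.9%). NK cells, with wide intervals, had 83.5% (75.2 to 89.9%) and 80.2% (69.9 to 88.3%). Intervals also overlapped in CD8B T cells (85.6% and 87.2%) and the DERL3/JCHAIN B-lineage class (83.4% and 85.8%). The pairs differed. In the whole libraries the A.G.-ES share was 3.21 points higher for PSMB9 with PSMB6 and 7.32 for PSMB10 with PSMB7. For PSMB8 with PSMB5 the gap was -0.16 points, and in monocytes -0.83 points. Only in SOX13/RHEX T cells was that last share higher, by 1.04 points. Shares of UMIs follow 3′ capture of each gene and are not shares of assembled particles.

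**Figure D4:**
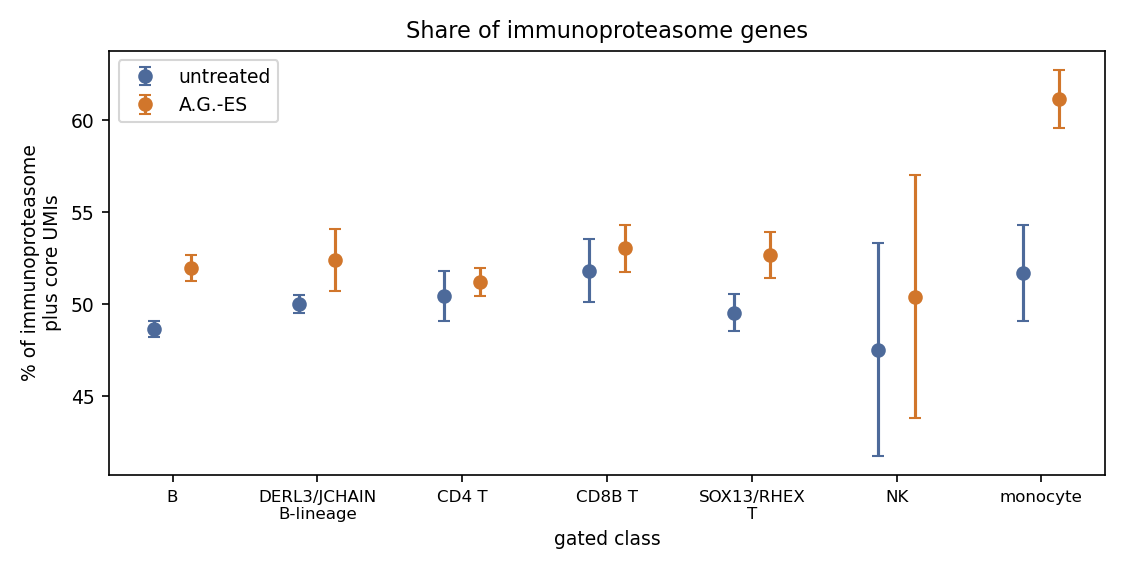
Immunoproteasome genes as a percent of immunoproteasome plus core UMIs in each class and library, with exact binomial 95% intervals. The vertical axis does not start at 0. The monocyte points lie farthest apart, at 51.7% and 61.2%.

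Levels also differed between classes. Among the 6 classes other than NK, which had too few UMIs to be ranked (core sum 1157 and 766 CPM), the core sum was highest in the DERL3/JCHAIN B-lineage class and next in CD8B T cells in both libraries, and lowest in monocytes in both, a span of 1.94-fold (untreated) and 1.56-fold (A.G.-ES). In the untreated library the intervals of the DERL3/JCHAIN B-lineage class (1642 to 1687 CPM) and CD8B T cells (1560 to 1723 CPM) overlap, and so do those of B (1302 to 1334 CPM) and CD4 T cells (1263 to 1364 CPM). Among A.G.-ES cells the intervals of SOX13/RHEX T cells (1078 to 1158 CPM) and CD8B T cells (1153 to 1242 CPM) each overlap that of CD4 T cells (1117 to 1168 CPM). The order of the top classes was not kept at like depth. Among cells of 3000 to 6000 UMIs, CD8B T cells gave 1317 and 1208 CPM. The DERL3/JCHAIN B-lineage class gave 1219 and 1100 CPM there (28 and 35 cells). Between 6000 and 12000 UMIs the values were 1750 and 1097 CPM against 1471 and 1192 CPM. The part of depth and of cycling cells in this ranking was not tested.

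For the immunoproteasome sum, monocytes were the lowest of the 6 classes in the untreated library and the third highest in the A.G.-ES library, after the DERL3/JCHAIN B-lineage class and CD8B T cells, whose interval (1306 to 1400 CPM) overlaps that of monocytes (1278 to 1389 CPM). PSMB10 and PSME2 were highest in monocytes in the A.G.-ES library (161 and 179 CPM), and highest in CD8B T cells in the untreated (150 and 181 CPM). Of the 48 members past the whole-library minimum, 22 had the same highest class in both libraries and 28 the same lowest. Monocytes were lowest in both libraries for 20 members, and the DERL3/JCHAIN B-lineage class highest in both for 11. These counts were not made over all genes, and depth differed between the classes, so they are not read as a trait of the members.

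PSMG4 had the widest span between those 6 classes in the untreated library among members past the minimum, 9.60-fold. It was highest in SOX13/RHEX T cells, at 465 untreated CPM (446 to 486) and 545 A.G.-ES CPM (518 to 574), and lowest in monocytes at 48.5 and 86.2 CPM. CD4 T cells came second in both libraries (297 and 385 CPM). Its neighbours in the RefSeq annotation of ARS-UI_Ramb_v3.0, SLC22A23 and LOC121817394, gave 1.21 and 3.23 CPM and 0 UMIs in the whole libraries. PSMG4 was also the single member below 1 in cycling cells of both libraries, with all classes pooled.

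Cycling cells carried more proteasome RNA per UMI than other cells. There were 536 untreated and 186 A.G.-ES cycling cells, with medians of 11691.5 and 6102.5 UMIs against 4902 and 4066 in the others. All classes were pooled here. Of the cycling cells, 210 and 8 were in the DERL3/JCHAIN B-lineage class, which had the highest core sum, and 7 in each library were SOX13/RHEX T cells. The part of class make-up in these ratios was not tested. The core sum was 2089 CPM in cycling and 1295 CPM in other untreated cells (1.61, 1.58 to 1.64), and 1627 and 1053 CPM in the A.G.-ES library (1.54, 1.48 to 1.61). The immunoproteasome sum gave 1.67 (1.64 to 1.70) and 1.41 (1.36 to 1.47), and the 19S sum 1.56 and 1.49. Among cells of 6000 to 12000 UMIs the core ratio was 1.21 (1.16 to 1.27) and 1.44 (1.34 to 1.55), and the immunoproteasome ratio 1.32 in both libraries. The excess of both sums was therefore present at like depth in both libraries, and smaller there than over all cells.

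Of 47 members with at least 50 UMIs in cycling cells, 45 were above 1 in both libraries and 22 at least 1.5-fold higher in both. The same counts were not made over all genes, so whether they are particular to the proteasome set is not known. PSMA4 was at 2.08 and 2.29, PSMB10 at 2.14 and 1.67 and PSMB5 at 2.06 and 1.72 times its level in other cells. PSMG4 was lower in cycling cells, at 0.558 (171 against 306 CPM) and 0.612 (212 against 347 CPM), and PSMF1 was at 0.762 and 1.08. For PSMG4 the classes were pooled as well, and SOX13/RHEX T cells, its highest class, held few cycling cells. With cycling cells left out, the whole-library ratio was 0.813 for the core and 0.912 for the immunoproteasome.

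A stricter gate, chosen after these values were seen, asked for JCHAIN, MZB1 and DERL3 at 0.3% or more of a cell's UMIs. It held 77 untreated and 6 A.G.-ES cells. In the 77 untreated cells, 55 of them cycling, the core sum was 2228 CPM (2137 to 2322), the immunoproteasome sum 2027 CPM (1940 to 2116), the 19S sum 1693 CPM (1614 to 1775) and all members 6432 CPM. These levels are above those of every gated class. The 22 cells that were not cycling gave a core sum of 1908 CPM. The 6 A.G.-ES cells were too few to be set beside them.

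Summed levels also moved with the depth of a cell. In the untreated library the core sum was 1058, 1133, 1344 and 1773 CPM in cells of 1000 to 3000, 3000 to 6000, 6000 to 12000 and at least 12000 UMIs, and the A.G.-ES sums were 891, 1073, 1085 and 1472 CPM. The core ratio in these ranges was 0.843, 0.946, 0.807 and 0.830, and that of the immunoproteasome 0.934, 1.04, 0.912 and 0.905. The core was thus lower in the A.G.-ES library in each range, whereas the immunoproteasome was lower in 3 of the 4 and higher in cells of 3000 to 6000 UMIs. In B cells the core ratio was 0.659, 0.881, 0.784 and 0.773.

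**Figure D5:**
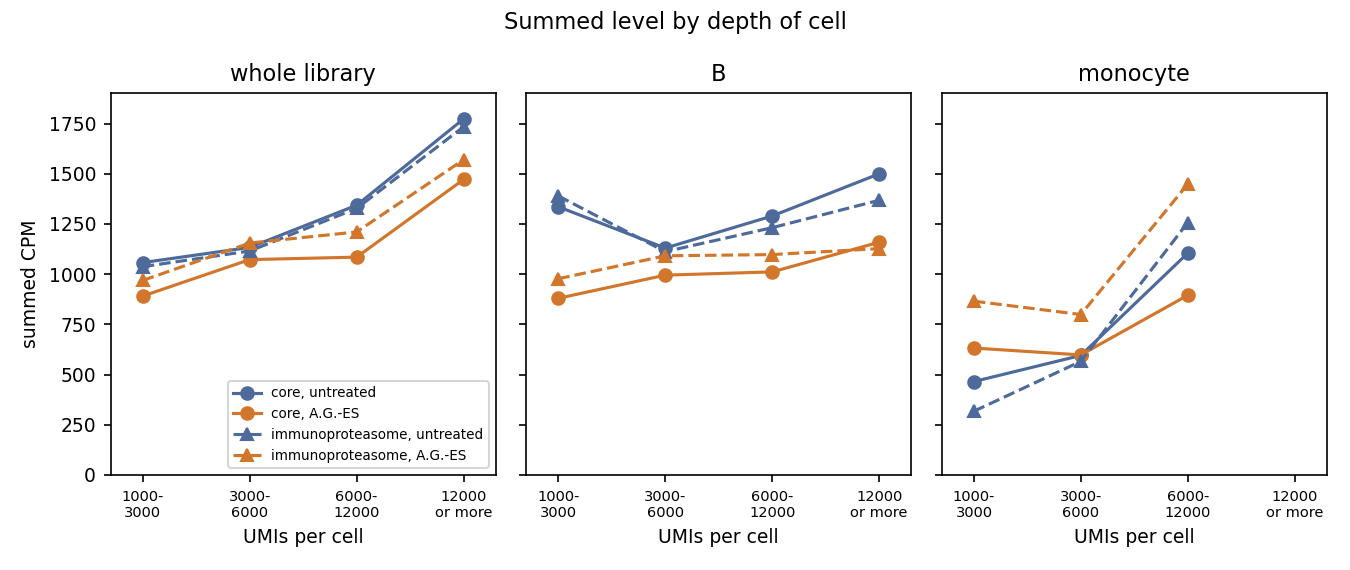
Summed CPM of core genes (circles, solid lines) and immunoproteasome genes (triangles, dashed lines) against the UMIs per cell, in the whole libraries, B cells and monocytes. Levels are higher in deeper cells in the whole libraries, and in monocytes the A.G.-ES immunoproteasome line lies above the untreated one in each of the 3 ranges drawn.

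Genes that work with the proteasome but lie outside the set were read in the whole libraries as well. Of 18 partner genes (receptors, assembly factors, shuttles and regulators of proteasome expression) 1 was higher past the fold (13.3% of all genes) and 2 were lower (16.4%), neither share above that of all genes. A ratio below 1 was found for 14 of the 18 and for 5995 of all 10641 genes tested, and the medians of the log2 ratio were -0.22 and -0.08. PAAF1, which binds the 19S ATPases during assembly, was at 16.8 and 8.89 CPM (0.528, 0.465 to 0.599). POMP, the maturation factor of the 20S core, was at 147 and 135 CPM (0.918, 0.886 to 0.951). NFE2L1, a transcription factor of proteasome genes, was at 67.1 and 60.2 CPM (0.898).

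Most genes of interferon signalling, which induces the immunoproteasome, had a ratio above 1. Of 14 such genes 13 passed the minimum, and 3 were higher (13.3% of all genes) and 1 lower (16.4%) past the fold, with a median log2 ratio of 0.31. JAK2 was at 61.1 and 117 CPM (1.91, 1.82 to 2.00), IRF1 at 53.6 and 88.9 CPM (1.66, 1.58 to 1.74) and STAT2 at 21.3 and 35.5 CPM (1.66, 1.54 to 1.80), while the receptor subunit IFNAR2 was at 206 and 125 CPM (0.604). In monocytes 4 of 13 were higher (8.2% of all genes), among them IRF1 (386 and 614 CPM, 1.59), IRF8 (29.1 and 49.0 CPM, 1.68) and NLRC5 (80.0 and 132 CPM, 1.64). In B cells, where the immunoproteasome sum was lower, 5 of 13 were higher as well (9.68% of all genes), among them IRF1 (36 and 68.3 CPM, 1.90) and IRF8 (35.6 and 73.2 CPM, 2.05). The DERL3/JCHAIN B-lineage class had 4 of 12 higher (9.14% of all genes) and 1 lower (22.4%). CD4 T cells had 0 of 12 higher (5.47%) and 2 lower (14.4%), and CD8B T cells 0 of 8 higher (5.86%) and 3 lower (25.2%). SOX13/RHEX T cells, where the immunoproteasome sum was higher, had 0 of 11 higher (4.76%) and 1 lower (15%). Only 3 of the 11 were below 1 there, against 65.3% of all genes. The list median there was a log2 ratio of 0.13, against -0.15 for all genes. It was 0.27 in monocytes, -0.36 in CD4 T and -0.42 in CD8B T cells, against -0.08, -0.18 and -0.28 for all genes. These list medians had the direction of the immunoproteasome sum by total UMIs in each. However, the CD4 T sum was at 1.04 under TMM, and the CD8B T median rests on 8 genes. In B cells (0.44) and the DERL3/JCHAIN B-lineage class (0.14) the list median was above 0 while that sum was lower. A link between the list and the immunoproteasome was not tested.

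PSMB8 and PSMB9 lie beside the peptide transporter gene TAP1 in the RefSeq annotation of ARS-UI_Ramb_v3.0, within the MHC. TAP1 was at 70.1 and 90.9 CPM in the whole libraries (1.30, 1.24 to 1.36). In monocytes it was at 87.3 and 154 CPM (1.76, 1.35 to 2.32), in SOX13/RHEX T cells at 50.9 and 85.2 CPM (1.67, 1.39 to 2.02) and in B cells at 62.6 and 61.9 CPM (0.988, 0.894 to 1.09). CD4 T cells gave 87.6 and 104 CPM (1.19, 1.00 to 1.41), NK cells 43.7 and 119 CPM from few UMIs (2.72, 1.03 to 8.37), CD8B T cells 119 and 107 CPM (0.90, 0.719 to 1.13) and the DERL3/JCHAIN B-lineage class 73.9 and 55.8 CPM (0.755, 0.583 to 0.965). TAP1 thus had a ratio above 1 both in the classes with a higher immunoproteasome sum and in CD4 T and NK cells, whose sum was lower. TAP1 was chosen for its position after earlier values were seen. PSME1 and PSME2 are neighbours too, and PSME1 overlaps EMC9 there, which gave only 13.6 and 14 CPM. In all, 13 of the 50 members overlap another annotated gene, and whether strand was used in counting is not given in the sources used here.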

How the data were processed

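Sheep blood mononuclear cells were profiled with a SeekOne DD 3′ kit in 1 untreated and 1 A.G.-ES library, per the labels' protocols. For each library the authors deposited raw UMI counts per gene and barcode. Columns of sample values set aside numbered 0. Which aligner, counter, build or cell caller was used is not given in the sources used here. Gene names were matched to the RefSeq table of ARS-UI_Ramb_v3.0 (50 of 50 members), used only for neighbours, the chromosome of a gene and Y-linked genes. Neither reference sequences nor coordinates were used here.

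Barcodes were kept with at least 500 UMIs, 200 genes and at most 15% mitochondrially encoded UMIs, a filter that took out 158 and 186 barcodes. Scrublet (scanpy 1.11.5) scored doublets, and the top-scoring 523 and 715 cells were removed, 0.8% per 1000 cells. Classes were gates on UMIs of marker genes. CD3G, CD163, PF4 and HBA1 were not analysed here. UMIs were summed per library and class. Ratios carry exact conditional binomial, levels exact Poisson and shares Clopper-Pearson intervals (scipy 1.17.1). Alternatives covered TMM scaling (edgeR 4.0.16), gene exclusion, cell weighting, doublets, cycling cells, gates and depth.

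The members, lists and markers were chosen with earlier results of these data known. Named were PSMB5 to PSMB10, PSME1 and PSME2 in every class, in each other role the members with the most UMIs and the highest and lowest ratio, and in each class the 2 highest and 2 lowest ratios. Some genes of the marker, partner and interferon lists are not reported here by name, and list counts and medians still hold them. In simulated Poisson counts for the whole libraries (10641 genes), intervals held the true ratio for 95.3% of genes. Those counts held counting error only, so variation between cells, animals or libraries was not tested.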

Additional observations from a re-analysis of the deposited data

Results flagged for a closer look

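The immunoproteasome sum differed in direction between classes under the same comparison. Its ratio, A.G.-ES over untreated, was 1.45 in monocytes and 1.13 in SOX13/RHEX T cells. It was 0.873 in B cells, 0.875 in the DERL3/JCHAIN B-lineage class, 0.898 in CD4 T cells, 0.766 in CD8B T cells and 0.743 in NK cells. The difference between classes was not tested, since each class had 1 library per group, and the CD4 T value crossed 1 under TMM scaling (1.04). The median ratio of all genes tested was 0.890 in the DERL3/JCHAIN B-lineage class and 0.884 in CD4 T cells, near the immunoproteasome ratios there.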

How the results depend on the processing

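No paired analysis was possible because each group has 1 library and no test was made. TMM scaling gave core ratios of 0.779 (whole library), 1.00 (CD4 T), 0.923 (CD8B T) and 1.07 (SOX13/RHEX T), and immunoproteasome ratios of 0.863, 1.04, 0.969 and 1.21 in the same order. Without ribosomal, mitochondrial and haemoglobin genes, the CD4 T ratios were 0.936 (core) and 0.966 (immunoproteasome) and the CD8B T ratios 0.810 and 0.851. That scaling moved the median log2 ratio of all genes by 0.11 in CD4 T and 0.15 in CD8B T cells. With every cell at the same weight, core ratios were 0.812 (whole library), 0.802 (CD8B T) and 1.11 (monocytes), immunoproteasome ratios 0.887 (whole library), 0.961 (CD4 T), 0.880 (CD8B T) and 1.71 (monocytes), and 2 members in place of 4 were lower past the fold. Without cycling cells the core ratios were 0.813 (whole library) and 0.851 (CD8B T), the immunoproteasome ratios 0.912 and 0.937. Raised gates gave immunoproteasome ratios of 0.853 (CD4 T) and 0.688 (CD8B T). The alternatives that follow were chosen after seeing the data. Without the CD79A limit the CD8B T ratios were 0.555 and 0.588. The stricter JCHAIN gate, with 6 A.G.-ES cells, gave 0.358 and 0.591. In cells of 3000 to 6000 UMIs, core ratios were 0.946 (whole library), 0.881 (B), 0.903 (DERL3/JCHAIN B-lineage), 0.940 (CD4 T) and 0.917 (CD8B T), and immunoproteasome ratios 1.04, 0.981, 0.759, 1.03 and 0.981 in the same order. There PSMA3 (1.11), PSMC2 (1.17), PSMD10 (1.17) and PSMD4 (1.04) of the DERL3/JCHAIN B-lineage class turned above 1, from 28 and 35 cells. The cause of these changes was not tested. Over these settings the immunoproteasome ratio lay between 1.41 and 1.71 in monocytes and between 1.11 and 1.21 in SOX13/RHEX T cells, but other depth ranges went beyond this: in monocytes 2.73 (1000 to 3000 UMIs) and 1.15 (6000 to 12000 UMIs), and in SOX13/RHEX T cells 1.04 (0.914 to 1.17) in the latter range. Most single members past the fold in CD8B T (12 of 16) and DERL3/JCHAIN B-lineage cells (9 of 10) were inside it under at least 1 alternative. NK cells, with 43 and 62 cells, limit any value per gene there.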
